A study of Mus musculus with 8 samples.

Results

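Transcripts of 10 Rab GTPases were followed in label-retaining and non-retaining biliary cells of the mouse liver: Rab39b, Rab39, Rab11a, Rab25, Rab17, Rab27a, Rab27b, Rab3b, Rab3d and Rab8a. They are 10 of the 46603 genes in the count table. The set was chosen by the counts of Rab39b, which had no reads in any EGFP-negative library, and the other members are its closest relative and Rab GTPases of epithelial transport and secretion. The counts of Rab39b are therefore given as a description, without a test.

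Rab proteins are small GTPases that sit on vesicle membranes in their GTP-bound form and recruit motors, tethers and fusion machinery, so that each cargo reaches the right membrane. Exchange factors switch them on, GTPase-activating proteins switch them off, and GDI proteins extract the inactive form from the membrane. The cells lining bile ducts are polarized: apical delivery of transporters and channels, recycling through Rab11-positive endosomes, and transcytosis of immunoglobulin A into bile all depend on Rab proteins. Rab39b is known best from neurons, where loss of the X-linked gene causes intellectual disability with parkinsonism.

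RNA was sequenced from 8 libraries, a pair from each of 4 mice, 1 of EGFP+ and 1 of EGFP- cells (JV602, JV621, JV624 and JV6314). All mice were heterozygous for R26rtTA and for H2B-EGFP, a histone fusion that doxycycline induces and that cell division dilutes. They were of mixed C57BL/6 and CBA background, and the transactivator is driven from the ubiquitous Rosa26 locus, so the label is not restricted to 1 cell type. Doxycycline was given from birth to postnatal day 5, and EpCAM+CD45- cells were sorted from the liver at 8 weeks of age. EGFP+ cells are called LLRCs (liver label-retaining cells) and EGFP- cells non-LRC cells. All levels are CPM, counts over library sizes scaled by TMM. All fold changes are LLRC over non-LRC, on the log2 scale except for lower bounds written as a number of fold, which are linear ratios. Standard errors (SE) were computed as the size of the log2 fold change over the square root of the test's F statistic.

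Total counts lay between 7860021 and 9851819 in LLRC libraries and between 4670132 and 8056103 in non-LRC libraries. A count of 3, taken as the limit of detection for counting error only, equalled 0.291 to 0.626 CPM. Between libraries, log2 levels correlated at 0.884 to 0.919 within LLRCs and at 0.627 to 0.795 within non-LRC cells. All 12 cholangiocyte markers were read in every LLRC library. Their summed level was 115162 to 222323 CPM there and 66728 to 164471 CPM in non-LRC libraries, nearly all of it from Spp1, which took 7.85% to 18.9% of the counts of a library. Markers of other cells differed between the libraries. The 10 endothelial markers summed to 24.2 to 49.9 CPM in LLRC and to 153 to 538 CPM in non-LRC libraries, and the 8 stellate and fibroblast markers to 269.9 to 869.6 CPM and 683 to 2699 CPM. The 10 hepatocyte markers reached 6529.6 and 4809 CPM in the non-LRC libraries of JV624 and JV6314, against 2134 to 3366 CPM in the other 6. The 11 pancreatic acinar markers stood at 1545 CPM in the non-LRC library of JV6314 and at 2.25 to 23.0 CPM elsewhere. In these pooled cells, fewer cells of a type and less RNA per cell cannot be told apart.

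The coding sequences of Rab39b and Rab39 are shown first because the count pattern of the set turns on telling these paralogs apart. Rab39b lies on the X chromosome (chrX:75572046-75578231, minus strand, GRCm38) and Rab39 on chromosome 9 (chr9:53684110-53706232, minus strand). The most alike 90 bases, coding bases 8 to 97 of both genes, include the phosphate-binding loop of the GTPase. Capitals mark the 16 bases that differ.
Rab39b: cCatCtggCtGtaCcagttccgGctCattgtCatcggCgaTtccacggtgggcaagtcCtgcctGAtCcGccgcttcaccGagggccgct
Rab39: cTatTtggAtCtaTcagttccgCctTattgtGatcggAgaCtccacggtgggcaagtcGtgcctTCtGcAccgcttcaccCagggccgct

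The least alike 90 bases, coding bases 385 to 474 of Rab39b and 397 to 486 of Rab39, differ at 35 positions, again in capitals.
Rab39b: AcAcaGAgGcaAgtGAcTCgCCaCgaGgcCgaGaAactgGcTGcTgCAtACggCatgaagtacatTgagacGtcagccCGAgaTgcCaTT
Rab39: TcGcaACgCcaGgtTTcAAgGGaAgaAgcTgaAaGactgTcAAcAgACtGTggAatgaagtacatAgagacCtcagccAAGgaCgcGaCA

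Over 639 aligned coding bases the paralogs shared 469, or 73.4%, and their longest identical run was 24 bases. No 50-base window of the Rab39 transcript occurred in another gene. For Rab39b, 543 of 3352 such windows occurred elsewhere, all of them in Gm15063, an antisense gene whose exons overlap 634 bases (18.6%) of those of Rab39b on the opposite strand. The reads were counted without strand, so reads from the shared bases cannot be assigned to either gene, and the union mode of counting leaves them out. Gm15063 had 0 counts in every library over the bases it does not share.

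Rab39b was read in the LLRC libraries and in no non-LRC library. Its counts in LLRCs were 2 in JV602, 122 in JV621, 141 in JV624 and 111 in JV6314, and the 4 non-LRC libraries held 0. In CPM these LLRC levels were 0.194, 14.4, 20.7 and 12.3. JV621, JV624 and JV6314 thus shared a similar level, and JV602 stood below the 3-count limit although its LLRC library had 8897497 counts. The LLRC mean was 11.9 ± 8.60 CPM (SD, n = 4), at least 23.1-fold higher than the mean limit of 3 counts per library in non-LRC cells. Within mice, Rab39b was at least 23.0-fold higher in LLRCs of JV621, 43.8-fold in JV624 and 20.8-fold in JV6314. No fold can be given for JV602, where 2 counts stand against 0. Without the LLRC library of JV602 the mean was 15.5 CPM.

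These bounds cover counting error only, and genes at this level were often missing from single non-LRC libraries. Of 2338 genes with a mean LLRC level between 8 and 16 CPM, near that of Rab39b, 453 (19.4%) had 0 counts in at least 1 non-LRC library and 16 (0.684%) in at least 1 LLRC library. In every non-LRC library, 2 of the 2338 (0.0855%) had 0 counts. Rab39b is among them, and its zeros chose the set. Genes with a read numbered 14234 to 18930 in non-LRC and 18488 to 20430 in LLRC libraries, with the lowest number in the non-LRC library of JV621. There Rab22a, which had 100 counts in the LLRC library of the same mouse, also read 0 (named after its values were seen). The part of missing transcripts in the bounds was not tested. In LLRC libraries, 27 of the 2338 genes (1.15%) had 3 counts or fewer at least once, as Rab39b had in JV602. Rab39b was the 1 member of 10 whose LLRC libraries all exceeded all non-LRC libraries, an order held by 1.59% of the 27591 genes with any read. Because this order chose the set, nothing is read from it.

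Rab39, which acts in phagosome and autophagosome maturation, did not follow Rab39b. It had 31 counts in the LLRC library of JV602 and 0 in those of JV621, JV624 and JV6314. In non-LRC cells it had 1 count in JV6314 and 0 in the other 3. The LLRC library with almost no Rab39b was therefore the 1 library with more than a single Rab39 read, at 3.00 CPM. In that library the summed level of the 10 leukocyte markers was 33.4 CPM, the highest of the LLRC libraries (14.3 to 33.4 CPM), against 16.6 to 41.8 CPM in non-LRC cells, and Cd3e was at 0 in every library. The part of these values in either Rab transcript was not tested. The 8 neuron markers, of interest because Rab39b is a neuronal transcript, summed to 74.9 to 136 CPM in LLRC and to 66.3 to 174 CPM in non-LRC libraries. Of these 8 neuron markers, 2 were read in every LLRC library, and Tubb3 and Nefl were at 0 throughout.

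**Figure D1:**
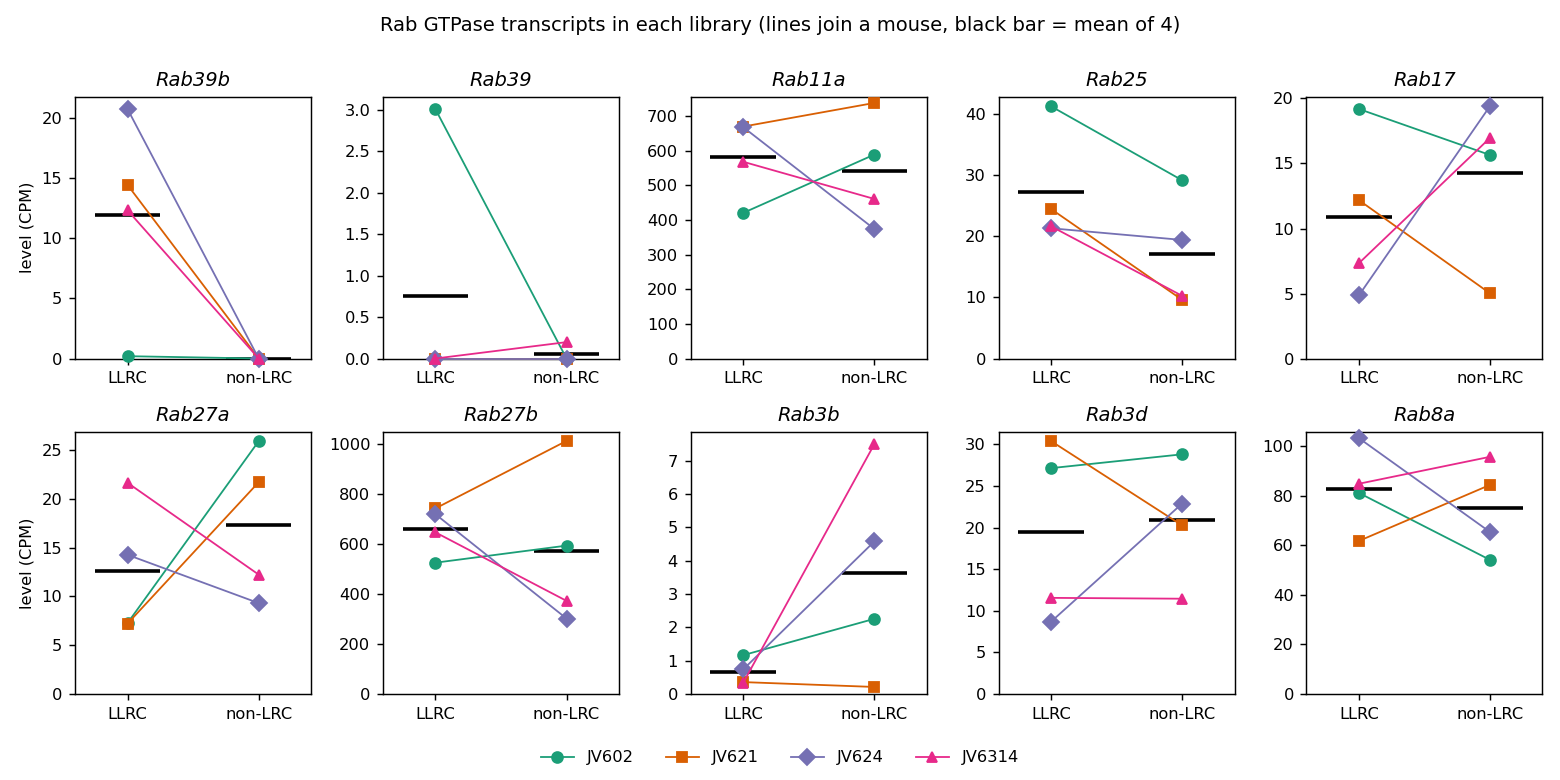
Level in CPM of each of the 10 Rab transcripts in the 4 LLRC and 4 non-LRC libraries, with a line joining the libraries of a mouse and a black bar at the group mean. Rab39b is at 0 in all non-LRC libraries and near 0 in the LLRC library of JV602, Rab39 is read in that library at 3.00 CPM, and the groups overlap for the other 8 genes.

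Of the 10 Rab genes, 8 were abundant enough for the test of 4 LLRC against 4 non-LRC libraries. Rab39b and Rab39 did not pass the expression filter, since the filter asks for a minimum level in 4 libraries. By edgeR's quasi-likelihood test, with p-values adjusted over 13605 genes by Benjamini-Hochberg, 0 of the 8 passed the threshold of 0.05. The background was the same, with 0 genes (0%) called in either direction and a lowest adjusted p of 0.0809 over all genes. At an unadjusted p below 0.05, 1 of the 8 was lower in LLRCs (background 3.56%) and 0 were higher (background 1.60%). With the mouse as a block, 0 of the 8 had an unadjusted p below 0.05. With DESeq2, 0 of the 8 passed against 0.366% of genes higher and 1.29% lower, and with a newer dispersion estimate of edgeR 0 of the 8 against 0.0882% and 0.448%. The 8 log2 fold changes were 4 above and 4 below 0 (above 0 in 48.9% of tested genes), with a median of 0.0024, and the median over all tested genes was -0.01. None of the 8 had groups that did not overlap, an order that 2.15% of tested genes showed upward and 1.91% downward.

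The recycling Rabs were represented by Rab11a (chr9:64715299-64737758), the general marker of recycling endosomes, and Rab25 (chr3:88542029-88548300), its epithelial relative. Rab11a stood at 421, 670.3, 669 and 569 CPM in LLRCs of JV602, JV621, JV624 and JV6314, and at 589, 739, 374 and 461 CPM in their non-LRC cells. The groups overlapped, and LLRCs were higher in JV624 and JV6314 and lower in JV602 and JV621. The log2 fold change was 0.11 (SE 0.29, adjusted p = 0.9999 in edgeR's quasi-likelihood test), and it was -0.04 without the non-LRC library of JV624. Rab25 stood at 41.3, 24.5, 21.3 and 21.7 CPM in LLRCs and at 29.2, 9.61, 19.4 and 10.3 CPM in non-LRC cells. It was higher in LLRCs in 4 of 4 mice, as were 7.74% of all tested genes, yet the non-LRC library of JV602 exceeded 3 of the LLRC libraries. The means were 27.2 ± 9.51 and 17.1 ± 9.21 CPM (SD, n = 4). The fitted difference was 0.66 on the log2 scale (SE 0.46, adjusted p = 0.9999 by edgeR). JV602 moved this value most: it was 0.40 without its LLRC library and 1.04 without its non-LRC library.

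Rab17 (chr1:90958133-90969661), an epithelial Rab of transcytosis and apical sorting, spread widely in both groups. Its LLRC levels were 19.2, 12.2, 4.85 and 7.33 CPM in JV602, JV621, JV624 and JV6314, and its non-LRC levels 15.7, 5.01, 19.4 and 17.0 CPM. LLRCs were higher in JV602 and JV621 and lower in the other 2 mice, and the log2 fold change was -0.39 (SE 0.57, adjusted p = 0.9999, edgeR's quasi-likelihood test). It was -0.80 without the LLRC library of JV602 and -0.66 without the non-LRC library of JV621. It was -0.14 without the LLRC library of JV624, -0.23 without that of JV6314, and -0.21 without the non-LRC library of JV624.

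Rab27a (chr9:73044854-73097629) and Rab27b (chromosome 18) dock secretory granules, lysosome-related organelles and exosome precursors at the plasma membrane. Rab27b stood at 525, 743, 719.6 and 647 CPM in LLRCs and at 594, 1013, 302 and 373 CPM in non-LRC cells. The LLRC libraries lay within the non-LRC range. LLRCs averaged 659 ± 97.8 CPM and non-LRC cells 570.3 ± 320.3 CPM (SD, n = 4). Rab27a was far less abundant, at 7.27, 7.21, 14.3 and 21.7 CPM in LLRCs and at 25.9, 21.7, 9.31 and 12.2 CPM in non-LRC cells. The log2 fold changes were 0.21 (SE 0.39) for Rab27b and -0.46 (SE 0.52) for Rab27a, both with an adjusted p of 0.9999. Without the non-LRC library of JV624 the value of Rab27b was -0.01, and without that of JV621 it was 0.65. For Rab27a, leaving out the non-LRC library of JV602 gave -0.20 and leaving out the LLRC library of JV6314 gave -0.84. Per length of exon, Rab27b exceeded Rab27a in every library. The LLRC ratios were 26.2, 37.4, 18.3 and 10.9 and the non-LRC ratios 8.32, 16.9, 11.8 and 11.1, higher in LLRCs in 3 mice and close in JV6314.

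Rab3b and Rab3d belong to the Rab3 group of regulated exocytosis. Rab3b (chr4:108879063-108943324) was scarce: LLRCs held 12, 3, 5 and 3 counts and non-LRC cells 18, 1, 29 and 38 counts. In CPM this was 1.16, 0.355, 0.735 and 0.333 against 2.25, 0.209, 4.58 and 7.50. LLRCs were lower in 3 mice, while the lowest library of all was the non-LRC library of JV621. The log2 fold change was -2.45 (SE 0.95, unadjusted p = 0.0285, adjusted p = 0.850, edgeR's quasi-likelihood test). No other tested member had a fold change of this size. The 2 highest libraries were those with the highest hepatocyte and stellate marker sums, and the highest, non-LRC JV6314, was the one with 1545 CPM of acinar markers. The log2 fold change was -1.83 without that library and -0.94 without both. Leaving out the highest non-LRC libraries of Rab3b shrinks its fold change whatever the cause. The part of other cells in the Rab3b difference was not tested. Antisense 8030443G20Rik overlaps 317 of the 3524 exon bases of Rab3b and had 0 counts in every library. Rab3d (chr9:21907491-21918192) stood at 27.1, 30.4, 8.68 and 11.5 CPM in LLRCs and at 28.8, 20.3, 22.9 and 11.4 CPM in non-LRC cells. The groups overlapped fully, at a log2 fold change of -0.10 (SE 0.50; adjusted p = 0.9999) that was 0.08 without the non-LRC library of JV602, 0.15 without the LLRC library of JV624 and 0.09 without that of JV6314.

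Rab8a (chr8:72161200-72183904), which carries cargo to the apical surface and the primary cilium, overlapped between the groups. Its levels were 81.1, 61.7, 103 and 84.8 CPM in LLRCs, against 54.1, 84.4, 65.3 and 95.7 CPM for non-LRC cells. LLRCs were higher in JV602 and JV624 only, and the log2 fold change was 0.14 (SE 0.29, adjusted p = 0.9999, edgeR's quasi-likelihood test), with 0.01 without the non-LRC library of JV602, 0.03 without the LLRC library of JV624, 0.27 without that of JV621 and 0.29 without the non-LRC library of JV6314.

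Within mice the members did not move alike. Rab11a, Rab27a and Rab27b were lower in LLRCs in JV602 and JV621 and higher in JV624 and JV6314, and Rab17 showed the reverse. This split, noticed after the values were seen, was found in 4 of the 8 tested members, in 18.3% of all tested genes, in 3 of 39 other Rab genes and in 9 of 60 regulators and effectors. For Rab27a the log2 ratios of LLRC to non-LRC within a mouse, with 1 CPM added, were -1.70, -1.47, 0.57 and 0.78 in JV602, JV621, JV624 and JV6314. For Rab27b they were -0.18, -0.45, 1.25 and 0.79, and for Rab17 0.28, 1.13, -1.80 and -1.11. The non-LRC libraries of JV624 and JV6314 are those with the hepatocyte marker sums given above and with the highest stellate sums, 2699 and 2248 CPM. Without these 2 libraries the fold changes were -0.19 for Rab11a, -0.29 for Rab27b, -0.92 for Rab27a and 0.07 for Rab17. Among non-LRC libraries, these 2 hold the lowest levels of Rab11a, Rab27a and Rab27b and the highest of Rab17. Leaving them out therefore moves each fold change toward its sign in JV602 and JV621, whatever the cause. The part of other cells in the split was not tested.

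**Figure D2:**
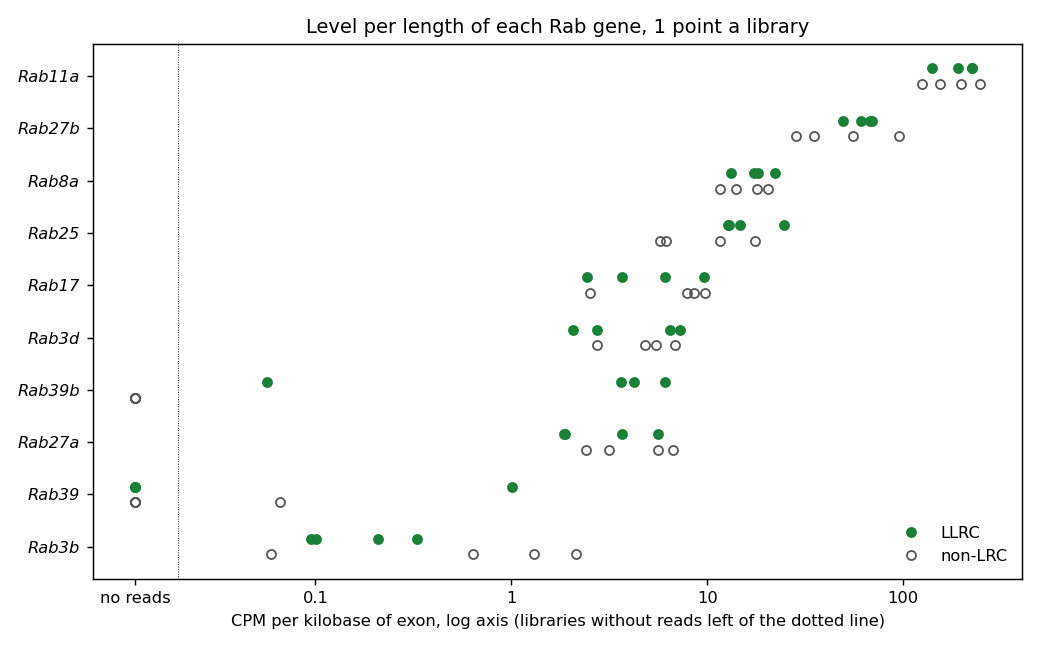
Level per kilobase of exon, on a log axis, of each Rab gene in each LLRC library (filled) and non-LRC library (open), with libraries without reads left of the dotted line. Rab11a and Rab27b lie above the other members in all 8 libraries, and 3 LLRC points of Rab39b lie in the range of Rab27a, Rab3d and Rab17.

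Levels of the members were compared with each other per kilobase of exon. In LLRCs the order of mean levels (CPM per kilobase) was Rab11a at 195 ± 39.3, Rab27b at 61.7 ± 9.15, Rab8a at 17.7 ± 3.64, Rab25 at 16.3 ± 5.68, Rab17 at 5.47 ± 3.17, Rab3d at 4.63 ± 2.60, Rab39b at 3.51 ± 2.53, Rab27a at 3.25 ± 1.77, Rab39 at 0.253 ± 0.506 and Rab3b at 0.183 ± 0.111 (SD, n = 4). Rab8a and Rab25 differed by less than their spread, as did the 4 genes from Rab17 to Rab27a, and Rab39 and Rab3b. With the longest transcript as the length, LLRC levels were 25.2 for Rab25, above the 18.2 of Rab8a, and 95.6 for Rab27b. Rab39b lay between 3.62 and 6.10 CPM per kilobase in LLRCs of JV621, JV624 and JV6314 and at 0.0570 in JV602, where Rab27a stood at 1.87. In non-LRC cells the order began the same way, with Rab11a at 181 ± 53.0, Rab27b at 53.4 ± 30.0, Rab8a at 16.01 ± 3.99 and Rab25 at 10.2 ± 5.50, and ended with Rab39b at 0. Rab11a and Rab27b together took 82.7% to 92.5% of the members' counts, and the members took 21.3% to 29.2% of the counts of all 60 Rab genes.

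The other 50 Rab genes were set beside the members. Of these, 39 were tested, 0 passed the threshold (0 also at an unadjusted p below 0.05), and 23 were above and 16 below 0 with a median log2 fold change of 0.13. Rab1a, which acts between the endoplasmic reticulum and the Golgi, had the most counts, 712 CPM on average, and a log2 fold change of 0.19 (SE 0.28). Rasef, an atypical Rab with EF-hand domains, had the smallest p of those higher in LLRCs. Its levels were 26.0, 20.6, 9.12 and 33.5 CPM in LLRCs, against 16.2, 0.209, 0.631 and 6.31 CPM for non-LRC cells, higher in LLRCs in 4 of 4 mice although the groups overlapped. Its log2 fold change was 1.92 (SE 1.06, adjusted p = 0.9999, edgeR's quasi-likelihood test). Rab5c, an early endosome Rab, had the smallest p of those lower, at -0.94 (SE 0.58).

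**Figure D3:**
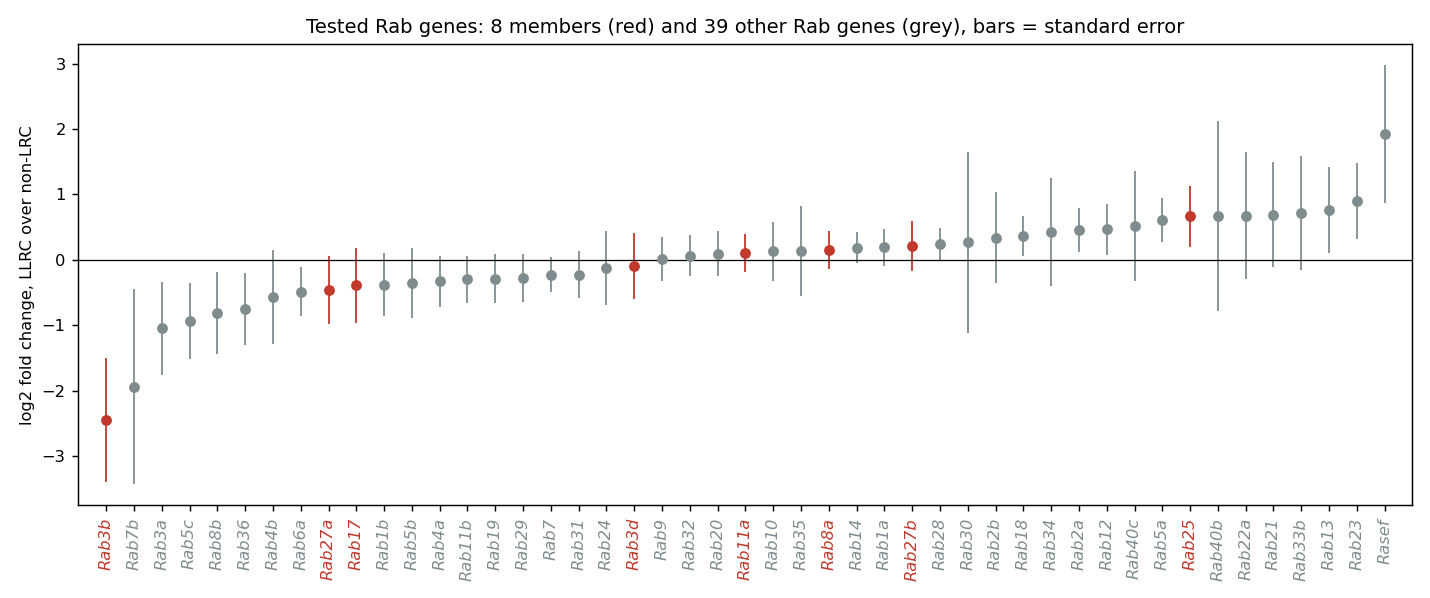
Log2 fold change, LLRC over non-LRC, of the 47 tested Rab genes in order of size, with standard errors, the 8 tested members in red and 39 other Rab genes in grey. Rab3b at -2.45 and Rasef at 1.92 lie at the ends, and no gene passed the threshold.

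In 1 of the other Rab genes every LLRC library lay above every non-LRC library (background 1.59%), and in 1 every LLRC library lay below (background 1.15%). Both were named after their values were seen, and neither passed the expression filter. Rab26, a Rab of secretory granules and synaptic vesicles, had 5, 9, 4 and 10 counts in LLRCs of JV602, JV621, JV624 and JV6314 and 0 in all non-LRC libraries, at least 1.57-fold higher by the 3-count limit. Unlike Rab39b it was read in JV602 as in the other mice. Rab42 had 2, 2, 1 and 3 counts in LLRCs against 5, 13, 13 and 6 in non-LRC cells.

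The profile of Rab39b over the 8 libraries was compared with all tested genes by Pearson's r of log2(CPM + 1), as a description. Both groups and the low LLRC library of JV602 enter each r, so genes that differ between the groups or are low in that library rank high. The 5 most alike genes were Hepacam2 (r = 0.965), an adhesion molecule of the immunoglobulin family, Rsph4a (0.959), a radial spoke protein of motile cilia, the predicted genes Gm7551 (0.944) and Gm6161 (0.942), and Prps1l3 (0.938). Hepacam2 had 13, 99, 77 and 145 counts in LLRCs against 2, 0, 6 and 0, and Rsph4a had 4, 52, 40 and 58 against 0, 0, 7 and 0. Both were thus lowest among LLRCs in JV602, where Rab39b was almost missing, a likeness that the ranking by r selects for. Gm7551, Gm6161 and Prps1l3 differed far less between groups. Within the Rab family the most alike were Rab26 (r = 0.869), Rab5a (0.748) and Rab2a (0.729), and Rab39 stood at -0.29.

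**Figure D4:**
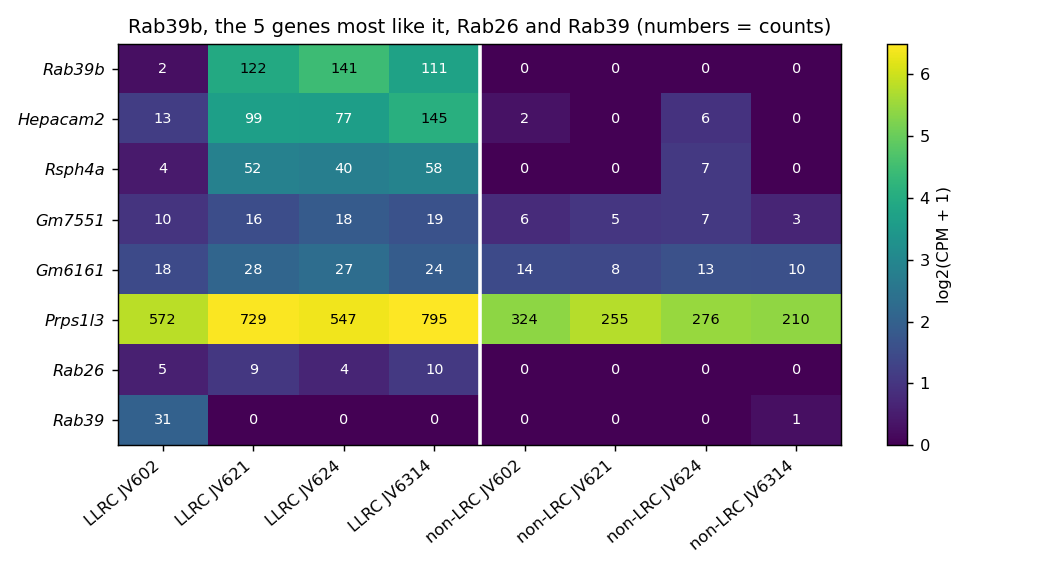
Log2(CPM + 1) as colour, with the counts written in, of Rab39b, the 5 tested genes most like it, Rab26 and Rab39 in the 4 LLRC libraries (left of the white line) and the 4 non-LRC libraries. In Rab39b, Hepacam2 and Rsph4a the LLRC library of JV602 is the lowest of the LLRC libraries, and in Rab39 it is the 1 library with more than 1 count.

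The machinery around these Rabs was summarized over 71 regulators, effectors, tethers and cargo, of which 60 were tested. None (0) passed the threshold, 2 were higher and 1 lower at an unadjusted p below 0.05 (background 1.60% and 3.56%), and the median log2 fold change was 0.12, with 33 above and 27 below 0. With the mouse as a block, 1 of the 60 had an unadjusted p below 0.05. Of 7 genes of the core cycle, 5 were above 0, and Gdi2, which extracts inactive Rabs from membranes and had the most counts of the 7, was at 0.34 (SE 0.29), while Rabif was at -0.25 (SE 0.37). Of 9 tested exchange factors 5 were above 0, with Rab3ip, the Rab8 exchange factor, at 0.38 (SE 0.28) and Dennd4c at -0.95 (SE 0.71). Of 7 tested GTPase-activating proteins 6 were above 0. Among them Tbc1d10b was at 1.39 (SE 0.58, unadjusted p = 0.0408, adjusted p = 0.929 in edgeR's quasi-likelihood test), higher in LLRCs in 4 of 4 mice, Evi5 at 0.22 (SE 0.34) and Tbc1d10a at -1.06 (SE 0.92).

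Effectors gave no common direction. For Rab11 and Rab25, 4 of 7 tested genes were above 0, with Rab11fip5 at 1.41 (SE 1.11) and Sh3bp5, an exchange factor of Rab11 kept in this list, at -0.11 (SE 0.55). For Rab27, 4 of 5 tested effectors were below 0, with Sytl5 at -0.88 (SE 0.57), Sytl4 at -0.38 (SE 1.18) and Mlph, the melanosome linker, at 0.74 (SE 1.16). For Rab3, Rph3al was at -0.16 (SE 0.60) and Synj1, a phosphoinositide phosphatase, at 0.38 (SE 1.03). Pick1 and Uaca, listed as partners of Rab39b and Rab39, were at 0.39 (SE 0.39) and -1.48 (SE 0.69, unadjusted p = 0.0589, adjusted p = 0.983 in edgeR's test).

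Of 9 exocyst subunits, which tether vesicles for Rab11 and Rab8, 5 were above 0. Exoc5, the subunit with the most counts though not the highest level per length, was at 0.70 (SE 0.59), and Exoc3 was at 0.79 (SE 0.58). Exoc2 stood at 48.2, 42.9, 39.3 and 37.1 CPM in LLRCs and at 76.4, 155, 29.8 and 105 CPM in non-LRC cells. It was lower in LLRCs in 3 of 4 mice, with a log2 fold change of -1.13 (SE 0.45, unadjusted p = 0.0334, adjusted p = 0.893 in edgeR's quasi-likelihood test). Of 12 tested apical SNAREs and cargo, 5 were above 0. Pigr, the receptor that carries immunoglobulin A into bile, had the most counts, 521 CPM on average, and a log2 fold change of 0.26 (SE 0.27). Cftr, the apical chloride channel, stood at 84.5, 158, 218 and 134 CPM in LLRCs and at 89.4, 68.3, 21.3 and 40.8 CPM in non-LRC cells, higher in LLRCs in 3 of 4 mice. Its log2 fold change was 1.43 (SE 0.47, unadjusted p = 0.0141, adjusted p = 0.688 in the same test). Cftr is also 1 of the 12 cholangiocyte markers, and its 2 lowest libraries are the non-LRC libraries of JV624 and JV6314. Vamp2 was at -1.05 (SE 0.61).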

How the data were processed

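RNA-seq counts of 8 libraries were used. The authors deposited raw counts per gene for 46603 Ensembl identifiers, made with HTSeq in union mode on exons without strand (GRCm38.p4). The aligner is not given in the sources used here. Their deposited edgeR result table (fold changes and p-values) was not used. Symbols and exon lengths came from GENCODE M21 for 46005 identifiers, and 598 had none. Vamp7 was not matched. From the counts, 13605 genes passed filterByExpr and were tested after TMM scaling (factors 0.816 to 1.23) with edgeR 4.0.16 (glmQLFit and glmQLFTest, R 4.3.3), with group as the only term. DESeq2 1.42.0 and limma 3.58.1 served as alternatives. Coding sequences were aligned with Biopython 1.88. The fits were tested on simulated data. The 10 members and all gene lists were chosen with earlier results of these data known. From each list of the pathway, the text names the gene of highest mean CPM and those with the smallest p in each direction. The 2 libraries of a mouse come from the same animal, and their deviations from the group means correlated at 0.096, 0.074, 0.003 and 0.171. Counting limits cover counting error only, and the 4 mice per group set the precision of each mean.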

Additional observations from a re-analysis of the deposited data

Results flagged for a closer look

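In 3 of 19 groups of 4 libraries checked over the members, 1 library stood far from the other 3, measured as its gap to the nearest library over the range of the group. Chance marks about 1 in 20 groups of continuous values, a rate that does not apply to Rab39, where any count beside 3 libraries at 0 is marked. Rab39 stood at 3.00 CPM (31 counts) in the LLRC library of JV602, with 0 in the other 3 LLRC libraries. It stood at 0.197 CPM in the non-LRC library of JV6314, which is a single count, with 0 in the other 3 non-LRC libraries. Rab25 stood at 41.3 CPM (426 counts) in the LLRC library of JV602, a gap of 0.842 of the range above the other 3 LLRC libraries, which lay between 21.3 and 24.5 CPM.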

How the results depend on the processing

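None of the 8 tested members, the tested other Rab genes or the tested regulators passed the threshold in any of 18 alternatives. Rab39b and Rab39 were below the expression filter, and no test of Rab39b is used. Over all genes the count of 0 (702 at an unadjusted p below 0.05) became 11 without the expression filter (1 higher and 10 lower), 221 with DESeq2 (49 and 172) and 73 with a newer dispersion estimate of edgeR (12 and 61); it was 0 with limma. Leaving out 1 library gave 0 to 6 genes, with 6 without the non-LRC library of JV602. The fit with the mouse as a block, the paired fit, called 0 genes (569 unadjusted) and changed no call at the adjusted threshold. At an unadjusted p below 0.05 it left 0 of the 8 members (1 without it), 1 of 60 regulators (3 without it) and 1 of 39 other Rab genes (0 without it). Of 144 member values under the alternatives, 136 kept their direction. With 1 library left out, the log2 fold change ranged from -0.04 to 0.30 for Rab11a, from -0.01 to 0.65 for Rab27b and from -0.39 to 0.15 for Rab3d. Without the non-LRC libraries of JV624 and JV6314, an alternative chosen after seeing the data, it was 0.0739 for Rab17, -0.1908 for Rab11a and -0.2886 for Rab27b. The single values that turned were -0.0415 for Rab11a and -0.0102 for Rab27b without the non-LRC library of JV624, and for Rab3d 0.0848 without the non-LRC library of JV602, 0.1509 without the LLRC library of JV624 and 0.0907 without that of JV6314. The cause was not tested. The lower bound for Rab39b ranged from 17.5 to 30.8 over 12 alternatives. Below 3 counts, absence and low level cannot be told apart.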

Other observations

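The closest relatives of Rab8a and Rab11a outside the set were also read in every library. Rab8b stood at 114.8 CPM in the non-LRC library of JV621 and between 15.6 and 27.5 CPM in the other 7, and the ratio of Rab8a to Rab8b per length was 0.743 in that library and 2.37 to 4.50 in the others. Rab11b stood at 62.5 to 70.4 CPM in LLRCs and at 40.8 to 136.6 CPM in non-LRC cells, with a fitted log2 difference of -0.30 (SE 0.36; adjusted p = 0.9999 in the test by edgeR).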
